A study of Mus musculus with 10 samples.

Results

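The SWI/SNF complexes, called BAF complexes in mammals, use the energy of ATP to slide and evict nucleosomes, which opens DNA to transcription factors. Each complex holds 1 ATPase with further subunits around it, and the canonical BAF and PBAF forms also hold an AT-rich interaction domain (ARID) subunit, which the non-canonical form lacks, as it lacks *Smarcb1* and *Smarce1*. *Arid1a* and *Arid1b* are alternative ARID subunits of canonical BAF complexes, and *Arid2* belongs to the PBAF form. In the nervous system these complexes are known for the exchange of subunits that accompanies the step from progenitor to neuron. The measurements here cover 10 genes chosen by symbol: *Arid1a*, the gene deleted in the study, with *Arid1b*, *Arid2*, *Smarca2*, *Smarca4*, *Smarcb1*, *Smarcc1*, *Smarcc2*, *Smarcd1* and *Smarce1*. All 10 were found among the 53974 genes of the RNA-seq table, and all 10 passed the filter on low values. Within 1000 bp of an end of these genes lay 9 of the 16600 regions of the ATAC-seq comparison, and they belonged to 8 of the 10 genes.

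The mice were C57BL/6 of 8 to 10 weeks by the labels. All groups carried floxed *Arid1a* alleles and had an optic nerve crush (ONC). The WT groups have the genotype *Arid1a* fl/fl and received AAV2-GFP in the vitreous 2 weeks before ONC, and the cKO groups have the genotype *Arid1a* del/del and received AAV2-Cre. Both viruses used the CMV promoter, which is not restricted to retinal ganglion cells (RGCs), so that any retinal cell transduced with AAV2-Cre could recombine. The viruses also differed in titer. Retinas were taken 3 days after ONC several were pooled for each sample, and cells were sorted with an antibody to Thy1.2. There were 3 RNA-seq libraries for each label, and 2 for each label in ATAC-seq, an assay of DNA open to a transposase. RNA is given as TPM (a share of each library's transcripts, scaled for transcript length), so levels of different genes can be set side by side, and its depth is unknown.

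The labelled cell type was checked against its markers. The RGC genes *Slc17a6* and *Pou4f2* reached at most 1.57 and 0.143 TPM, and *Pou4f2* was listed at 0 in 5 of the 6 libraries. *Rbpms* reached at most 6.43 TPM, and its groups overlapped, as did those of *Slc17a6*. *Thy1*, the gene of the sorting antigen, had 51.9 to 88.5 TPM with the label WT and 94.4 to 128.9 with the label cKO. *Tubb3* had 3.45 to 5.32 and 7.05 to 11.998 TPM. For *Thy1* and *Tubb3* every library labelled cKO was above every library labelled WT. Of 16 rod genes, 16 were higher in the libraries labelled cKO, and their summed level was 15941 to 22253 TPM in the libraries labelled WT and 33417 to 61097 TPM in those labelled cKO, with no rod marker at 0. Of 14 T cell genes, 14 were lower, with sums of 1219 to 3397 and 297.4 to 704.2 TPM, and no marker at 0. Of 12 myeloid genes, 12 were lower, with sums of 2327 to 3738 and 996.0 to 1423 TPM. Of 15 RGC genes 12 were tested, 8 higher and 4 lower, with sums of 153.4 to 208.3 and 240.9 to 266.7 TPM, and *Pou4f2* and *Pou4f3* at 0 in some libraries. These RGC sums include *Thy1*. Markers of rods, T cells and myeloid cells were thus present in all libraries, and their sums did not overlap between the labels. The part of this in each RNA value below was not tested, and in such bulk samples fewer cells of a type and less RNA per cell cannot be told apart.

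The starts of these genes are shown first, because most of the ATAC-seq regions within 1000 bp of a gene end lay at them. RefSeq (GRCm38.p6) gave promoter windows for 8 of the 10 genes, each 250 bases before and 50 after a listed start. The bases upstream of the outermost start are printed for *Arid1a*, for *Smarcd1* and *Smarca4*, which had the largest ATAC-seq differences, and for *Smarcb1*, which had the smallest. They are written 5′ to 3′ on the strand of the gene, and capitals mark GGGCGG or its reverse complement CCGCCC, the GC box read by SP and KLF factors.
*Arid1a*, minus strand, chr4:133756770-133757019: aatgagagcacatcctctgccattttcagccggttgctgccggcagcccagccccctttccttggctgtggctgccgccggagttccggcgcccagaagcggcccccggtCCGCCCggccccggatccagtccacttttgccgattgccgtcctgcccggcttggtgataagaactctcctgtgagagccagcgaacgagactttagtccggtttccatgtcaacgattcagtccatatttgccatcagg
*Smarcd1*, plus strand, chr15:99702037-99702286: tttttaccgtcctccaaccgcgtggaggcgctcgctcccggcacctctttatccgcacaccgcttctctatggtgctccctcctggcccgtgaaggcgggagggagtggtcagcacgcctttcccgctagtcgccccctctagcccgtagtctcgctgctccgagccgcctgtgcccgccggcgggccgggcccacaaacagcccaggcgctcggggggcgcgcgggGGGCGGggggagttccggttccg
*Smarca4*, plus strand, chr9:21615919-21616105: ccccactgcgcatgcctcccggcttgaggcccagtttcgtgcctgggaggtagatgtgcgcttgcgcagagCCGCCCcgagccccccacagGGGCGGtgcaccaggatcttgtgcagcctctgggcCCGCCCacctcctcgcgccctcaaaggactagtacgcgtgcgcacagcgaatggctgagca
*Smarcb1*, minus strand, chr10:75921615-75921864: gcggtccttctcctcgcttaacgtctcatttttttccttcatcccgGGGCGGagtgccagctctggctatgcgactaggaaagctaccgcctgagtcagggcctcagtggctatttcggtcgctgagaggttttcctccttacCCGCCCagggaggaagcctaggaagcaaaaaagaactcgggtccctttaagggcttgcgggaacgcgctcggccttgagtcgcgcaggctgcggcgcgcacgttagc

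These are GC-rich promoters of the kind found at genes active in most cell types. The 9 windows of the 8 genes had a GC content of 60.7% to 81.0%, beside a median of 52.7% over all 32851 windows. The printed *Smarca4* stretch held 3 GC boxes, that of *Smarcb1* held 2, and those of *Arid1a* and *Smarcd1* held 1 each. GGGCGG, on either strand, was present in all 9 windows and in 35.7% of all windows. CCGGAAG, the core read by ETS factors, was in 2 windows (those of *Smarca2* and *Smarcc1*) and in 8.86% of all windows. Neither CCAAT nor TATAAA occurred in any of the 9, and 37.4% and 13.6% of all windows hold them. Apart from GC boxes none of these motifs lies in the 4 printed stretches, and a match describes letters only.

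RNA of the targeted gene came first. *Arid1a*, which lies on chromosome 4 from 133679008 to 133756769 (GRCm38.p6), encodes the ARID subunit of canonical BAF that contacts DNA. The libraries labelled WT held 18.8, 11.7 and 14.1 TPM in replicates 1, 2 and 3, and those labelled cKO held 18.8, 27.9 and 25.001 TPM. The groups nearly touched at replicate 1 of each label but did not overlap, with the label cKO above (permutation p = 0.1, exact and two-sided, the smallest that 3 libraries against 3 allow). In limma this gave a log2 fold change of 0.66 with a standard error of 0.28 and an adjusted p of 0.274, and its 95% interval ran from -0.0039 to 1.32. It stood at the 82.3rd percentile of all genes tested. After scaling by the median of ratios it was 0.49, since that scaling moved the median of all genes from 0.16 to 0.01. A lower *Arid1a* level with the label cKO was thus not seen in this RNA. The paper reported less ARID1A protein staining in Tuj1-positive cells after AAV2-Cre, which is another measure in other samples. TPM is given per gene, so reads over the floxed part cannot be looked at alone, and directions below follow the labels.

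None of the 10 subunits was called by limma at an adjusted p under 0.05, and none reached an unadjusted p under 0.05. Over all 17555 genes tested, 0.00570% were called, 11.9% were higher at an unadjusted p under 0.05 and 6.45% were lower. Adjusted p ranged from 0.274 to 0.969. The fold changes of the subunits were above 0 for 6 genes (61.1% of all genes tested) and below 0 for 4, with a median of 0.19 against 0.16 for all genes tested. After scaling by the median of ratios 5 were above 0 and 5 below, with a median of 0.03. In 1 of the 10, *Arid1a*, the lowest library labelled cKO exceeded the highest labelled WT, beside 18.7% of all genes tested, and the opposite order occurred in none, beside 7.18%. A p that misses the threshold does not show that RNA levels were alike. The 95% intervals of the log2 fold changes were widest for *Smarcd1*, from -1.68 to 0.87.

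**Figure D1:**
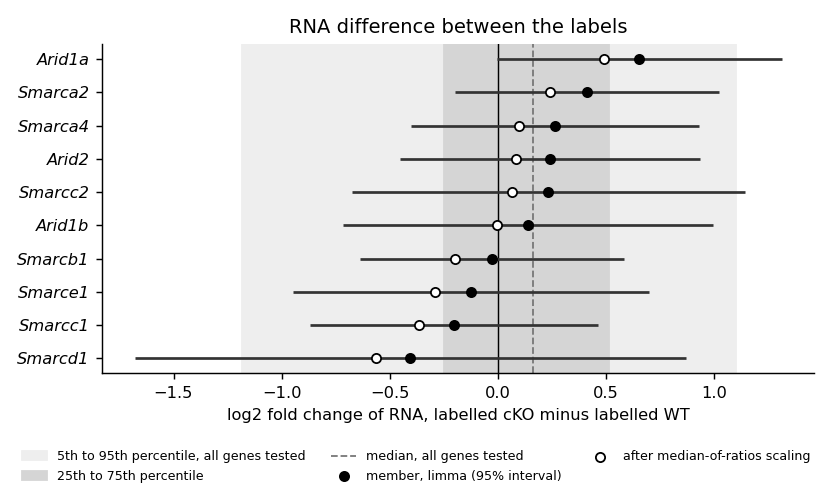
RNA log2 fold change (labelled cKO minus labelled WT) of the 10 subunits from limma on log2(TPM + 1), with 95% intervals (filled points and lines), the values after median-of-ratios scaling (open points), and the spread of all 17555 genes tested (grey bands). Every interval crosses 0, and 9 of the 10 filled points lie left of *Arid1a* at 0.66.

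The other ARID subunits were the least abundant genes of the set. *Arid1b*, the paralogue that takes the place of *Arid1a* in some canonical complexes, had 4.18, 6.57 and 6.86 TPM in the libraries labelled WT and 3.91, 7.60 and 8.77 TPM in those labelled cKO. Its groups overlapped, with the lowest library labelled cKO below all those labelled WT and the other 2 above them, and with a log2 fold change of 0.14 (standard error 0.36). *Arid2*, the large subunit of PBAF, had 8.59, 7.54 and 12.3 TPM with the label WT and 8.83, 12.1 and 12.8 TPM with the label cKO. These groups overlapped as well, with a log2 fold change of 0.24 (standard error 0.29).

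The catalytic subunits were unequal in level. *Smarca2* (BRM) had 100.6, 148.9 and 139.9 TPM in the libraries labelled WT and 216.0, 165.7 and 138.8 TPM in those labelled cKO. The lowest library labelled cKO lay just under the upper 2 labelled WT, with a log2 fold change of 0.41 (standard error 0.26, limma adjusted p = 0.432). *Smarca4* (BRG1), the other ATPase, had 24.3, 41.1 and 42.2 TPM with the label WT and 40.5, 37.0 and 49.7 TPM with the label cKO. Its WT replicate 1 was the one library below the rest, and without it the log2 fold change fell from 0.27 to 0.02. In each library the summed TPM of the ATPases was 3.96 to 8.13 times that of the 3 ARID genes, with means of 5.599 ± 1.71 (SD, n = 3) for WT and 5.48 ± 2.299 (SD, n = 3) for cKO.

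The subunits that are neither ARID subunits nor ATPases came next, and none of them stood apart between the labels. *Smarcb1* (SNF5), a small core subunit that holds the complex to the nucleosome, had 149.9, 262.1 and 203.3 TPM in the libraries labelled WT and 202.1, 171.5 and 218.2 TPM in those labelled cKO. All 3 libraries labelled cKO lay inside the range of those labelled WT, with a log2 fold change of -0.03 (standard error 0.26). *Smarcc2* (BAF170), a scaffold subunit, had 79.6, 186.1 and 144.3 TPM with the label WT and 135.0, 116.5 and 222.1 TPM with the label cKO. Here both groups were wide and overlapped. Its paralogue *Smarcc1* (BAF155) had 19.7, 32.6 and 19.1 TPM with the label WT and 18.4, 18.7 and 23.0 TPM with the label cKO. *Smarce1* (BAF57), an HMG-box subunit, had 36.0, 89.3 and 65.0 TPM with the label WT and 52.6, 48.1 and 63.9 TPM with the label cKO, again within the WT range.

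*Smarcd1* (BAF60A), which links the complexes to transcription factors, showed how far 1 library can carry a mean. It had 12.4, 42.7 and 10.4 TPM in the libraries labelled WT and 15.5, 16.2 and 9.13 TPM in those labelled cKO. WT replicate 2 was high and the other 5 libraries lay between 9.13 and 16.2 TPM. Its log2 fold change of -0.41 (standard error 0.54) became 0.20 without that library. The same library was the highest of its group for 6 of the 10 subunits, WT replicate 1 was the lowest of its group for 6, and cKO replicate 3 was the highest of its group for 7. Leaving out WT replicate 2 also turned the direction of *Smarcb1* (to 0.17), *Smarcc1* (to 0.04) and *Smarce1* (to 0.17). Leaving out WT replicate 1 turned *Arid1b* (to -0.05) and *Smarcc2* (to -0.11), and leaving out cKO replicate 3 turned the same genes (to -0.06 and -0.04). Without cKO replicate 2, *Smarcb1* stood at 0.07.

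**Figure D2:**
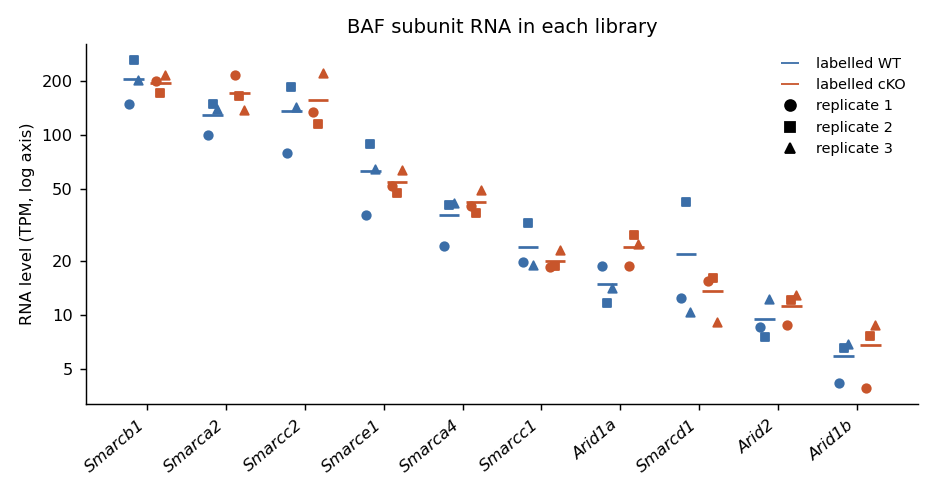
RNA level of each subunit (TPM, log axis) in the 3 libraries labelled WT and the 3 labelled cKO, with horizontal lines at the group means and genes ordered by their mean over all libraries. Levels run from 3.91 TPM (*Arid1b*) to 262.1 TPM (*Smarcb1*), and *Smarcd1* in WT replicate 2 stands at 42.7 TPM above its other libraries.

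By mean TPM over the 6 libraries the order was *Smarcb1* (201.2), *Smarca2* (151.7), *Smarcc2* (147.3), *Smarce1* (59.1), *Smarca4* (39.1), *Smarcc1* (21.9), *Arid1a* (19.4), *Smarcd1* (17.7), *Arid2* (10.4) and *Arid1b* (6.32). *Smarcc2* exceeded *Smarce1*, *Smarce1* exceeded *Smarca4*, *Smarca4* exceeded *Smarcc1*, and *Arid2* exceeded *Arid1b* in 6 of 6 libraries, although the ranges over all libraries overlapped for each of these neighbours. *Smarca2* exceeded *Smarcc2* in 3 of 6 libraries, mixed within both labels, so these neighbours did not differ beyond their spread. *Smarcc1* also exceeded *Arid1a* in 3 of 6, but these were all the libraries labelled WT and none labelled cKO. The order of *Smarcc1* and *Arid1a* thus followed the label. It was close at replicate 1, with 19.7 and 18.8 TPM in WT and 18.4 and 18.8 TPM in cKO, and this change of order was not tested. The levels placed *Smarcb1* at the 95.6th percentile of the genes tested and *Arid1b* at the 32.1st.

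The balance of paralogues was measured as a share of the summed TPM of each pair, which does not move with the scaling of a library. *Arid1a* made up 81.8%, 64.1% and 67.3% of the *Arid1a* and *Arid1b* sum in the libraries labelled WT and 82.8%, 78.6% and 74.0% in those labelled cKO. The groups overlapped through WT replicate 1 (difference 7.41 percentage points, exact two-sided permutation p = 0.3, 0.45 adjusted over the 3 pairs of genes). The difference was 12.8 points without WT replicate 1 and 3.91 without WT replicate 2. Between same-numbered libraries the share was higher with the label cKO in 3 of 3 (exact sign-flip p = 0.25, the smallest that 3 allow). *Smarca4* made up 19.5%, 21.6% and 23.2% of the ATPase sum with the label WT and 15.8%, 18.3% and 26.4% with the label cKO, a difference of -1.28 points (exact two-sided permutation p = 0.7, adjusted p = 0.7). *Smarcc1* made up 19.9%, 14.9% and 11.7% of the scaffold pair with the label WT and 12.0%, 13.8% and 9.38% with the label cKO, a difference of -3.74 points (exact two-sided permutation p = 0.3, adjusted p = 0.45). It was -1.55 points without WT replicate 1 and -5.64 without WT replicate 3, and the share was lower in 3 of 3 same-numbered libraries (exact sign-flip p = 0.25). In every library *Arid1a*, *Smarca2* and *Smarcc2* were the larger partner of their pair.

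**Figure D3:**
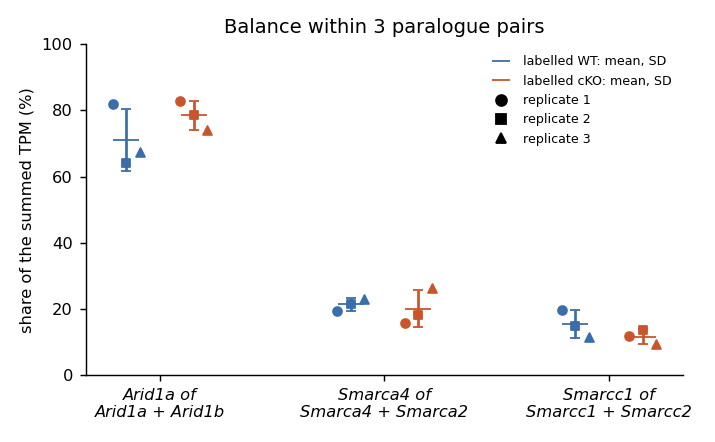
Share of the summed TPM (%) held by *Arid1a*, *Smarca4* and *Smarcc1* within their paralogue pairs, as single libraries, group means and SD (n = 3 per label). *Arid1a* holds 64.1% to 82.8% of its pair, and the groups overlap in all 3 pairs.

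The genes whose profile over the 6 libraries came closest to *Arid1a*, by the mean absolute difference of log2(TPM + 1) after each gene's own mean was subtracted, were *Gm5173* (0.0507), *2810403D21Rik* (0.0952), *Nxnl2* (0.0968), *Gm14418* (0.0990) and *Arhgef12* (0.107). *Nxnl2*, a thioredoxin-like gene known from photoreceptors, had 13.1 ± 1.71 TPM (SD, n = 3) with the label WT and 23.1 ± 4.33 TPM (SD, n = 3) with the label cKO. Of the other subunits *Arid2* was nearest to *Arid1a*, at rank 1359 of 12671 genes, and *Smarcd1* was farthest, at rank 9697.

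Beyond these 10 genes, 20 further subunits of SWI/SNF complexes were tested and none was called at an adjusted p under 0.05. At an unadjusted p under 0.05 from limma 2 were higher and 0 lower, beside 11.9% and 6.45% of all genes tested. Their log2 fold changes were above 0 for 13, beside 61.1% of all genes, and below 0 for 7, with a median of 0.11. These shares are near those of all genes. After scaling by the median of ratios 9 were above 0 and 11 below, with a median of -0.05. *Actl6b*, the neuronal actin-like subunit BAF53B, had 15.2, 13.1 and 8.30 TPM with the label WT and 38.2, 46.3 and 19.3 TPM with the label cKO (log2 fold change 1.38, adjusted p = 0.153 from limma). *Dpf3*, a PHD-finger subunit, had 24.9, 20.3 and 24.7 TPM and 43.9, 60.5 and 59.1 TPM (log2 fold change 1.18, adjusted p = 0.124 from limma). In these 2 of the 20 genes the label cKO lay above the label WT in every library, beside 18.7% of all genes tested. *Actl6a*, the alternative to *Actl6b* in most other cells, had 65.6 ± 6.90 TPM (SD, n = 3) with the label WT. With the label cKO it had 66.4 ± 2.19 TPM (SD, n = 3). *Smarcd2*, a paralogue of *Smarcd1*, had 14.1, 66.3 and 10.2 TPM with the label WT and 6.45, 7.80 and 8.85 TPM with the label cKO. It was the 1 gene of the 20 with every library labelled cKO below (7.18% of all genes). Its log2 fold change went from -1.38 to -0.59 without WT replicate 2. *Bcl11b*, a factor of T cells and neurons that also joins the complex, had 15.8, 1.00 and 7.68 TPM with the label WT and 2.99, 2.54 and 2.3004 TPM with the label cKO. Its groups overlapped, and its log2 fold change of -0.88 became -0.21 without WT replicate 1 and -1.75 without WT replicate 2. Beside these genes, marker sums of rods, cones, amacrine cells and RGCs were higher in every library labelled cKO. For RGCs the sum includes *Thy1*, the gene of the sorting antigen, and 4 of the 12 genes tested were lower. In WT replicate 2 *Thy1* made up 51.9 of 208.3 TPM, and in cKO replicate 3 it made up 128.9 of 243.3 TPM. Without *Thy1* these libraries stand in the opposite order, so the RGC groups overlap. Cones had 2021 to 2530 TPM with the label WT and 3552 to 6185 with the label cKO. Amacrine cells had 486.8 to 682.0 and 940.1 to 1766 TPM. Sums of T cells and myeloid cells were lower in every library labelled cKO. Those of bipolar cells, of Mueller glia and astrocytes, and of endothelial cells and pericytes overlapped between the labels. The part of any of these cell types in the values of the subunits was not tested.

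The ATAC-seq libraries of the cKO group stood apart as a whole. Their peak lists held 55902 and 68317 peaks, against 76522 and 42265 in WT. Of these, 8.9997% and 8.02% lay at a gene end, against 17.8% and 25.2% in WT, and 3.39% and 2.77% overlapped a peak of the other cKO library, against 13.6% and 24.4% between the WT libraries. All values of the ATAC-seq comparison rest on these libraries, and the part of this in them was not tested.

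ATAC-seq addressed whether the DNA at these genes was open. The comparison gives for each region the authors' mean normalized reads of 2 libraries per group on a log2 scale, so no spread between replicates exists for a region and no test was made. All 9 regions at ends of the subunit genes were lower in cKO by over 1 on the log2 scale. Each of them had a peak in both WT libraries and in neither cKO library, so this direction largely restates where peaks were called and nothing is read from it. Of the 8002 regions within 1000 bp of any gene end 88.8% were, and of all 16600 regions 59.6%, so the count of the subunit genes is near that of gene ends at large. None of the 9 was higher by over 1, beside 8.67% of all regions. A difference of over 2 was found in 8 of the 9, beside 67.4% of regions at gene ends. The 9 regions all had peaks in WT alone, while the regions at gene ends were not limited to such regions. Shares and percentiles set beside those regions, here and below, thus compare unlike sets, and nothing is read from them. Within 3000 bp of a gene end all 11 regions were lower by over 1, beside 82.9%, and within 1000 bp of a listed start all 9 were, beside 92.9%. A region at an end was found for 8 of the 10 genes, beside 51.5% of the tested genes with a position. The median log2 difference was -2.87 over the 9 regions and -2.50 over regions at gene ends. The WT means ran from 19.8 to 90.5 reads and the cKO means from 1.16 to 11.2 reads, without overlap.

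At *Arid1a* the region at chromosome 4 from 133756722 to 133757681 covers the promoter printed above and had 34.8 mean reads in WT and 5.43 in cKO, a log2 difference of -2.68. This lies at the 43.2nd percentile of the regions at gene ends, counted from the largest loss. That set is unlike the 9 regions, as said above, so nothing is read from this position. *Smarcd1* had the largest difference of the set, -4.09, in a region on chromosome 15 from 99701998 to 99702497, with 19.8 reads in WT and 1.16 in cKO. It also had the fewest WT reads of the 9. *Smarca4* was next with -3.85, on chromosome 9 from 21615688 to 21616578, from the highest WT value, 90.5 reads, to 6.28. Against all regions at gene ends, which are not limited to those with peaks in WT alone, these 2 regions lie at the 7.12th and 10.5th percentiles.

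*Smarca2* had 2 regions on chromosome 19. That over its start (26604560 to 26605604) had a difference of -3.17, and that 759 bp inside the gene (26605832 to 26607478) one of -2.37. *Smarcc1* (chromosome 9, 110131725 to 110132344) followed with -2.90 and *Arid2* (chromosome 15, 96284998 to 96286884, 638 bp outside the listed gene) with -2.87. *Arid1b* (chromosome 17, 4993927 to 4994620) had -2.23. *Smarcb1* had the smallest difference, -1.73, in a region on chromosome 10 from 75921146 to 75922217 with 26.9 reads in WT and 8.11 in cKO. Relative to the median of regions at gene ends, 6 of the 9 regions lost more and 3 lost less. After the median difference of all regions (-1.57) was subtracted, 6 of the 9 were lower by over 1, beside 47.0% of regions at gene ends. Those regions were again not limited to peaks in WT alone.

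**Figure D4:**
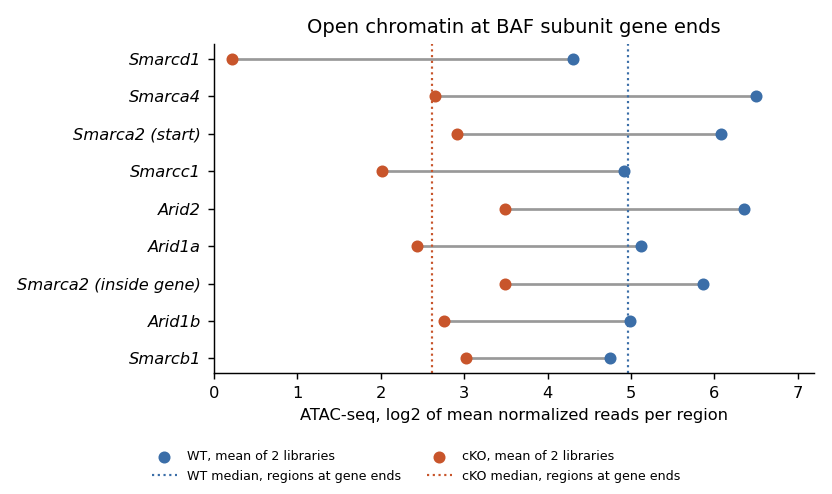
ATAC-seq signal (log2 of the authors' mean normalized reads of 2 libraries) in WT and cKO for the 9 regions within 1000 bp of an end of a subunit gene, ordered by their difference, with dotted lines at the medians of the 8002 regions at gene ends (4.97 in WT and 2.62 in cKO). Every WT point lies right of every cKO point.

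The peak lists give a value in each library. A peak lay within 1000 bp of a gene end for 10 of the 10 genes in WT replicate 1, 9 in WT replicate 2, 0 in cKO replicate 1 and 2 in cKO replicate 2. Over the 15518 tested genes with a position the shares were 65.1%, 58.2%, 13.6% and 13.9%. Both WT libraries had one for 9 of the 10 genes, beside 51.6%, and 8 of these lacked one in either cKO library, beside 37.5%. Within 3000 bp the counts were 10, 9, 2 and 5, beside 74.8%, 66.8%, 30.7% and 32.3%. Around the listed starts of 8 genes they were 8, 8, 0 and 0, beside 71.7%, 65.2%, 9.40% and 9.10%. In *Smarca4* the peak of cKO replicate 2 was at the far end of the gene, and in *Smarce1* it lay at the same end as the peak of WT replicate 1, without overlapping it. The gene bodies of the 10 genes together held 33 and 31 peaks in the WT libraries and 31 and 40 in the cKO libraries. *Smarcc2* had a peak within 1000 bp of its start in each WT library, but the peaks did not overlap and no region of the comparison lay within 1000 bp of its ends.

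**Figure D5:**
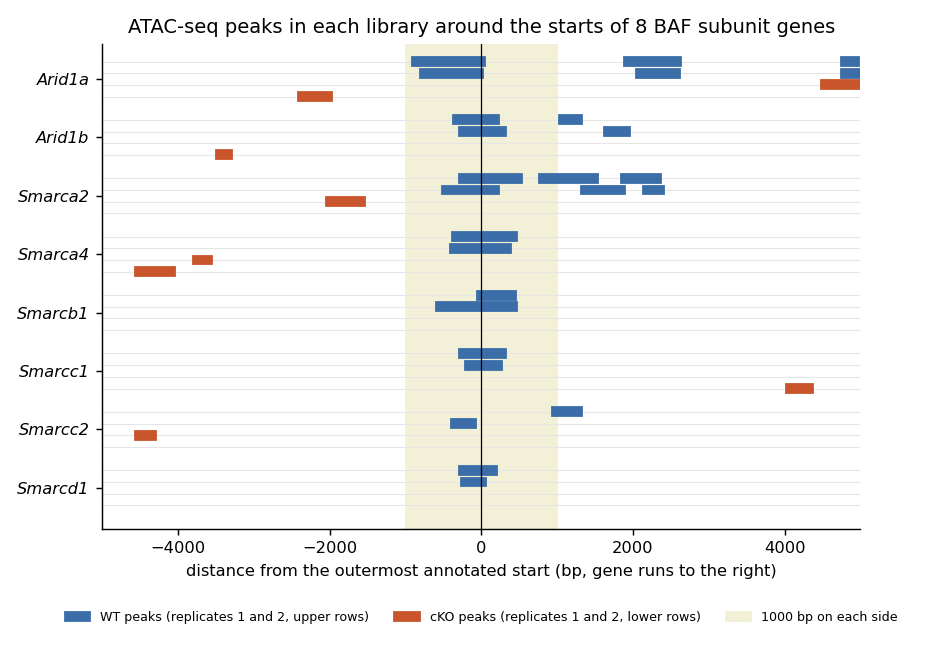
ATAC-seq peaks of each library around the outermost annotated start of the 8 subunit genes with a listed strand (distance in bp, gene to the right; 4 rows per gene, WT above cKO). WT peaks of both libraries cover the start in 7 of the 8 genes (all but *Smarcc2*), and no cKO peak lies within 1000 bp of any of these 8 starts.

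Further regions lay inside or near the genes but outside the 1000 bp limit, 7 in all. A region of *Arid1a* by its other listed start (chromosome 4, 133754140 to 133754887) had a log2 difference of -2.62, close to that of the main start. One of *Arid1a* farther in (133751693 to 133752293), with peaks in both WT libraries and in cKO replicate 1, had 9.06 reads in WT and 11.1 in cKO, a difference of 0.29. Inside *Arid2*, a region on chromosome 15 from 96319649 to 96320307 overlapped a peak of each cKO library and no WT peak, with 1.257 reads in WT and 11.2 in cKO, a difference of 3.16. The other regions far inside genes were 1 of *Arid1b* (chromosome 17, 5189582 to 5190386) with -2.24 and 2 of *Smarca2* (chromosome 19), with -2.11 (26747579 to 26748472) and 0.43 (26720808 to 26721284). The remaining region lay 2759 bp beyond *Smarcc2* (chromosome 10, 128493350 to 128494262), with -3.13. Of the 4115 regions inside genes and over 3000 bp from every gene end, 15.1% were higher in cKO by over 1 and 33.7% were lower by over 1.

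RNA and open chromatin were then set side by side. The regions of the 8 genes had peaks in WT alone, which fixes their direction in the ATAC-seq comparison, so the values are given as a description. The RNA log2 fold changes of these genes were above 0 in 5 and below 0 in 3, none of them called. *Smarcd1* and *Smarca4*, with the largest ATAC-seq differences, had RNA log2 fold changes of -0.41 and 0.27. *Smarcb1*, with the smallest, had -0.03, and *Arid1a* had 0.66 beside an ATAC-seq difference of -2.68. The assays were made on different libraries, so no value can be paired within a sample.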

How the data were processed

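Reads were trimmed with Trimmomatic by the authors, RNA-seq was quantified with Salmon 1.0.0 and tximport on GENCODE vM23, and the deposited TPM values are per gene and library. ATAC-seq was aligned with Bowtie2 2.3.5.1, and the submitters' processing notes also name MACS2 2.2.5. The authors' DiffBind comparison was deposited with group values on a log2 scale, the mean normalized reads of 2 libraries per region. Its fold, p and FDR columns, and the authors' DESeq2 comparison of RNA, hold their own results and were not used. Peak lists, deposited per library, give positions alone. Sequencing depth is not given, so no counting error can be stated.

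The filter kept the 17555 genes that reached 1 TPM in 3 or more of the 6 libraries, and log2(TPM + 1) was compared with limma 3.58.1 in R 4.3.3 (empirical Bayes with a trend, Benjamini-Hochberg adjustment over all genes tested, threshold 0.05). The count test of the study needs counts and was not used here. A fold change on this scale understates that of low genes. Single values were tested by exact two-sided permutation over the libraries. Each library was made from several pooled retinas, so p-values measure the spread between pools. The sample titles number the replicates but state no pairing between the labels. Deviations of same-numbered RNA-seq libraries from their group means had correlations of 0.334, 0.101 and 0.425 across genes. Differently numbered libraries were not compared in this way, so pairing by replicate number is an assumption. It was used only for the sign-flip p and for a block fitted in an alternative.

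Positions come from RefSeq (GRCm38.p6), which has no strand for 2 of the 10 genes, so either end of a gene counted. Positions are counted from 1. Python 3.11.15, numpy 2.4.6, pandas 2.3.3 and matplotlib 3.10.9 were used. The scripts were checked on simulated data. The 10 genes, the lists and the tests were chosen with earlier results of these data known. Named outside the 10 are the 4 of 20 other subunits with the largest absolute log2 fold change, with *Actl6a* added after its values were seen, and the 5 genes with a mean TPM of at least 5 nearest to *Arid1a*. Alternatives were a pseudocount of 0.1, no filter, a mean TPM of at least 5, median-of-ratios scaling, the block, no trend, leaving out each library, windows of 3000 bp, a log2 difference over 2, centring on all regions, and listed starts alone.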

Additional observations from a re-analysis of the deposited data

How the results depend on the processing

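No subunit was called by limma under any of the 12 RNA alternatives (0 of 10 members and 0 of 20 other subunits in each, with 0 to 4 genes called in all). *Arid1a* kept its direction under all 12, from 0.49 to 0.83. With the replicate block *Arid1a* stood at 0.66 (standard error 0.30, limma adjusted p = 0.272), and no call among the subunits changed, while the calls over all genes went from 1 to 2. Paired by number, the shares gave exact sign-flip p of 0.25, 0.5 and 0.25 for differences of 7.41, -1.28 and -3.74 points, where 3 pairs allow no p under 0.25. Scaling by the median of ratios turned *Arid1b* to -0.00368. With each library left out in turn, *Arid1b* ran from -0.0557 to 0.44, *Smarcb1* from -0.23 to 0.17, *Smarcc1* from -0.33 to 0.0366, *Smarcc2* from -0.11 to 0.50, *Smarcd1* from -0.77 to 0.20, *Smarce1* from -0.48 to 0.17, the *Arid1a* share difference from 3.91 to 12.8 points, the *Smarcc1* share difference from -5.64 to -1.55 points, and the *Smarca4* share difference from -4.39 to 0.892 points (0.892 without cKO replicate 1). The count of regions lower in cKO was 9 of 9 and stood at 11, 8, 6 and 9 with 3000 bp, a difference over 2, centring and listed starts alone. Within 3000 bp, 2 genes had a peak in cKO replicate 1 and 5 in cKO replicate 2, and at listed starts alone 0 had one in cKO replicate 2. For ATAC-seq, no paired analysis was possible because only means of each group are given per region. The cause of these changes was not tested. Unknown depth and 3 libraries a group limit what the RNA values can show.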
